A study of Mus musculus with 8 samples.

Results

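The genes of the mitochondrial respiratory chain and ATP synthase were described in mouse haematopoietic stem and progenitor cells after lentiviral transfer of KLF7, which encodes a transcription factor of the Krüppel-like family. A gene was taken where the platform annotation gave its probe set a single symbol starting with Nduf followed by a, b, c, s or v, with Uqcr, with Cox4 to Cox8, with Atp5, or with Sdha to Sdhd, and assembly factors and pseudogenes were left out. Of 19938 genes, 82 met this rule, with 36 in complex I, 4 in complex II, 8 in complex III, 17 in complex IV and 17 in complex V. The choice used names and no measured value, other than that the probe set with the highest mean stood for the 17 genes that had several. Cox7c and Ndufb4 are not analysed here, because their probe sets carried several symbols.

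The KLF7 group and the control group had 4 arrays each. Bone marrow cells of C57Bl/6 mice carrying the receptor c-Kit were exposed to the KLF7 virus or to a control virus in culture. Lin- c-Kit+ Sca-1+ cells, the fraction rich in stem cells and early progenitors, were sorted 72 h later, and their amplified RNA was hybridised to 1 array per sample. The labels give neither the promoter of the virus, nor what the control virus carried, nor whether the 4 samples of a group were cultured apart or taken from different mice. A p-value here therefore measures only how these arrays scatter, and that scatter may be technical.

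Complex I passes electrons from NADH, and complex II from succinate, to coenzyme Q. Complex III hands them to cytochrome c and complex IV to oxygen, and complex V uses the proton gradient that complexes I, III and IV build to make ATP. Long-lived blood stem cells are known for a low reliance on this pathway in the resting state, and progenitors for a higher one. Most subunits are nuclear genes and belong to the list, and those of the mitochondrial genome do not. Several subunits of complex IV exist in a common form and in a form found mainly in muscle, lung or testis.

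Promoters are shown first because members that move together are the subject of what follows. RefSeq windows on GRCm38.p6 had 300 bases, with 250 before and 50 after the transcription start. They were matched by Entrez number for 67 members, which gave 72 windows. On either strand, the NRF1 motif, GCGCA and GCGC with any base between them, which belongs to a regulator of mitochondrial genes, was in 17 of the 72 windows (23.6%), against 6.38% of 21263 windows of protein-coding genes. CCGGAAG, the motif of ETS factors such as GABPA, was also in 17 (23.6%), against 11.6%. The YY1 motif AAGATGGC was in 10 (13.9%), against 3.05%. At least 1 of these 3 motifs stood in 38 windows (52.8%), against 18.9% of all windows. For the letters that Krüppel-like factors are known to bind, CACCC was in 37 windows (51.4%), against 59.5%, and the GC box GGGCGG in 29 (40.3%), against 46.2%. A match is a string of letters and was not tested as a binding site. The CACCC and GC-box shares of the members therefore lay below those of all promoters, and the shares of the other 3 motifs lay above them.

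The windows of Sdha, Ndufs5 and Uqcr11 are examples of common subunits that were high on the same arrays, and those of Cox7a1 and Cox6b2 of isoforms that were not. Other members broke this contrast. Uqcr10, Ndufb5 and Ndufc2 shared the high arrays and held no match to any of the motifs, and Cox8a held 2 ETS matches without that order. Whether the motifs go with the order of the arrays was not tested. Capitals mark the motifs found in the window, on the printed strand or on its complement, and no matches overlapped in these 5 windows. Sdha (chr13:74350191-74350490, minus strand) held 3 NRF1 and 3 CACCC matches, Ndufs5 (chr4:123718137-123718436, minus strand) 1 NRF1 match, and Uqcr11 (chr10:80406772-80407071, minus strand) 1 ETS and 3 CACCC matches. Cox7a1 (chr7:30183921-30184220, plus strand) held none, and Cox6b2 (chr7:4753045-4753344, minus strand) 1 GC box and 1 CACCC match.
Sdha: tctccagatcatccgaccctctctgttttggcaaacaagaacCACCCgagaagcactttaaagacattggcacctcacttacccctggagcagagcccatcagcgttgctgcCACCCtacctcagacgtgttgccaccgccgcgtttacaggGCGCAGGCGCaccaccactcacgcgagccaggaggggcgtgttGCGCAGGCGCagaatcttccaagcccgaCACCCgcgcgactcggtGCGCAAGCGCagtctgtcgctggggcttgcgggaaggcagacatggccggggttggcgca
Ndufs5: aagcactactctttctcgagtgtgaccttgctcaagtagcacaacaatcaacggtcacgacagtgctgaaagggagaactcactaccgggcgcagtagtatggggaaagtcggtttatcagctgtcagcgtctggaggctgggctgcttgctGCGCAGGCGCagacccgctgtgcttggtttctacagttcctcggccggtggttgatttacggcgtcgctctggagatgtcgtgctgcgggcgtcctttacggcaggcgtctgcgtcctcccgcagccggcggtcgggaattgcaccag
Uqcr11: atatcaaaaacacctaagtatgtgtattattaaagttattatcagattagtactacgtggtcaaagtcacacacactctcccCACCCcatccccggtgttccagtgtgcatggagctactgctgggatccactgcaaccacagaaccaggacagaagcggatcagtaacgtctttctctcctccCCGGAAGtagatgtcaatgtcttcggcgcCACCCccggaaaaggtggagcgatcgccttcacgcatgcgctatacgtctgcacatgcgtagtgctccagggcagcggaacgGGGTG
Cox7a1: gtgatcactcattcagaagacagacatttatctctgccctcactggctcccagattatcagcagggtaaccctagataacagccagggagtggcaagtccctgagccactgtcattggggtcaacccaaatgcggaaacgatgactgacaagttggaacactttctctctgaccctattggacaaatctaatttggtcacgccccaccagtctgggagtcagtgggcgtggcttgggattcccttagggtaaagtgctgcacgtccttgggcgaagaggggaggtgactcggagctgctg
Cox6b2: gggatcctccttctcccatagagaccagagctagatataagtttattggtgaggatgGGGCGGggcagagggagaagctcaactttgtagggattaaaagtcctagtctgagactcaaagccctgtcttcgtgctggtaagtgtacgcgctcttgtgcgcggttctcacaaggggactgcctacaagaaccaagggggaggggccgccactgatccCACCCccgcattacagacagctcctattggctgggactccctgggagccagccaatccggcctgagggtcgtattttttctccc
The letters printed are those of 1 annotated start for each of these 5 genes. The motif shares count all 72 windows of 67 members, so a gene with more than 1 start counts more than once. Of the tissue isoforms and associated proteins, 5 had a window (Cox6b2, Cox7a1, Cox7a2l, Cox7b2 and Cox8b). An NRF1, ETS or YY1 match was in 0 of the 5, against 18.9% of all windows, and so few windows cannot show a difference. Cox7a2l, one of the 5, shared the high arrays. The tissue isoforms and associated proteins were grouped after their values were seen.

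Values are log2 of the deposited intensities, and a level of 1 probe set cannot be set against that of another. The transduced gene checked the labels. Klf7 stood at 11.43, 10.19, 11.05 and 10.52 on the arrays labelled KLF7 1 to 4, against 8.53, 10.28, 9.35 and 7.98 on those labelled control 1 to 4. Control 2 was higher than KLF7 2, the only pair in which the labelled groups overlapped. Counts and medians over the members are also given without both. The difference was 1.76 (SE 0.46), with an adjusted p of 0.327 in limma and p = 0.0571 in an exact two-sided permutation test, where 70 splits allow no p below 0.0286. Among cell markers, the mean of 8 mast cell and basophil genes was 6.01 on KLF7 4 and 5.69 on control 4, and lay between 8.09 and 9.23 on the other 6 arrays. Kit itself was at 7.85 on KLF7 4 and 8.33 on control 4, and at 9.57 to 10.52 on the others. The mean of 6 megakaryocyte markers was 7.66, 8.72, 7.77 and 9.14 on KLF7 1 to 4, against 8.32, 8.09, 8.08 and 9.58 on control 1 to 4, so KLF7 4, control 4 and KLF7 2 were its 3 highest arrays. Of the 6, Gp5, Pf4 and Ppbp had these 3 highest arrays singly. The mean of 12 neutrophil and granule markers was 7.58, 8.33, 9.39 and 7.17 on KLF7 1 to 4, against 8.33, 8.40, 9.29 and 7.07 on control 1 to 4, lowest on both arrays numbered 4. Erythroid markers averaged 5.88 to 6.71 and stem and progenitor markers 7.57 to 7.98. Means of T and NK markers stayed at 4.63 to 5.07 and of B cell markers at 4.68 to 5.04. All 13 monocyte, macrophage and dendritic cell markers had higher means on the KLF7 arrays, against 50.4% of all genes. In limma, 9 of them had an unadjusted p under 0.05, against 8.21% of all genes, and 0 passed after adjustment. The list's mean was 9.86, 8.99, 8.71 and 9.27 on KLF7 1 to 4, against 8.66, 8.10, 7.73 and 8.90 on control 1 to 4. Higher means were had by 1 of 9 erythroid, 1 of 9 division, 1 of 6 megakaryocyte and 2 of 6 B cell markers. The count was 7 of 10 for stem and progenitor, 7 of 12 for neutrophil, 6 of 8 for mast cell and 5 of 8 for T and NK markers. Among stem and progenitor markers, Hlf (-0.90, SE 0.23) and Myb (-0.91, SE 0.24) had all KLF7 arrays below all control arrays. Their adjusted p were 0.327 and 0.356 in limma. In a bulk sample, fewer cells of a type and less RNA per cell cannot be told apart.

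No member differed between KLF7 and control past the test. In limma with Benjamini-Hochberg adjustment over all genes, an adjusted p under 0.05 was reached by 0 of 82 members and by 0 of 19938 genes (0%). Cox7a1 had the smallest adjusted p among members, 0.461. At an unadjusted p under 0.05 stood 2 members (2.44%), Cox7a1 higher and Cox4i2 lower, against 1637 genes (8.21%). That is 1 member higher (1.22%), against 4.65% of genes, and 1 lower (1.22%), against 3.56%. In 0 members did the 4 KLF7 arrays and the 4 control arrays fail to overlap, against 5.22% of all genes. At the unadjusted threshold and in non-overlap the members' shares lay below the background, and that gap was not tested.

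By direction alone, 51 of 82 members (62.2%) averaged higher on KLF7 than on control arrays, against 50.4% of all genes. The median difference was 0.075 log2 over the members and 0.0019 over all genes. Differences ran from -0.85 (Cox6a2) to 0.61 (Ndufs5), and 79 of 82 were under 1.5-fold in size. The count of higher members rested on single arrays. It was 21 without KLF7 4, 24 without control 2, 30 without KLF7 2, 65 without KLF7 3, 68 without control 4 and 70 without KLF7 1. With both arrays numbered 2 left out, a setting chosen after seeing the data, it was 13 of 82 and the median difference was -0.22. Without both arrays numbered 4 it was 51 of 82, with a median of 0.052.

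The precision of the members was lower than that of most genes. The median spread within a group was an SD of 0.621 log2 for the members, against 0.243 for all genes, 0.301 for 68 cytosolic and 0.529 for 77 mitochondrial ribosomal protein genes. A member's 95% interval reached 0.805 log2 to either side at the median, against 0.389 for all genes. For 48 of 82 members (58.5%) the whole interval lay within a 2-fold change, against 88.6% of all genes, and for 3 it lay within 1.5-fold. A change of 2-fold is therefore outside the interval for 48 members and inside it, in at least 1 direction, for the other 34.

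**Figure D1:**
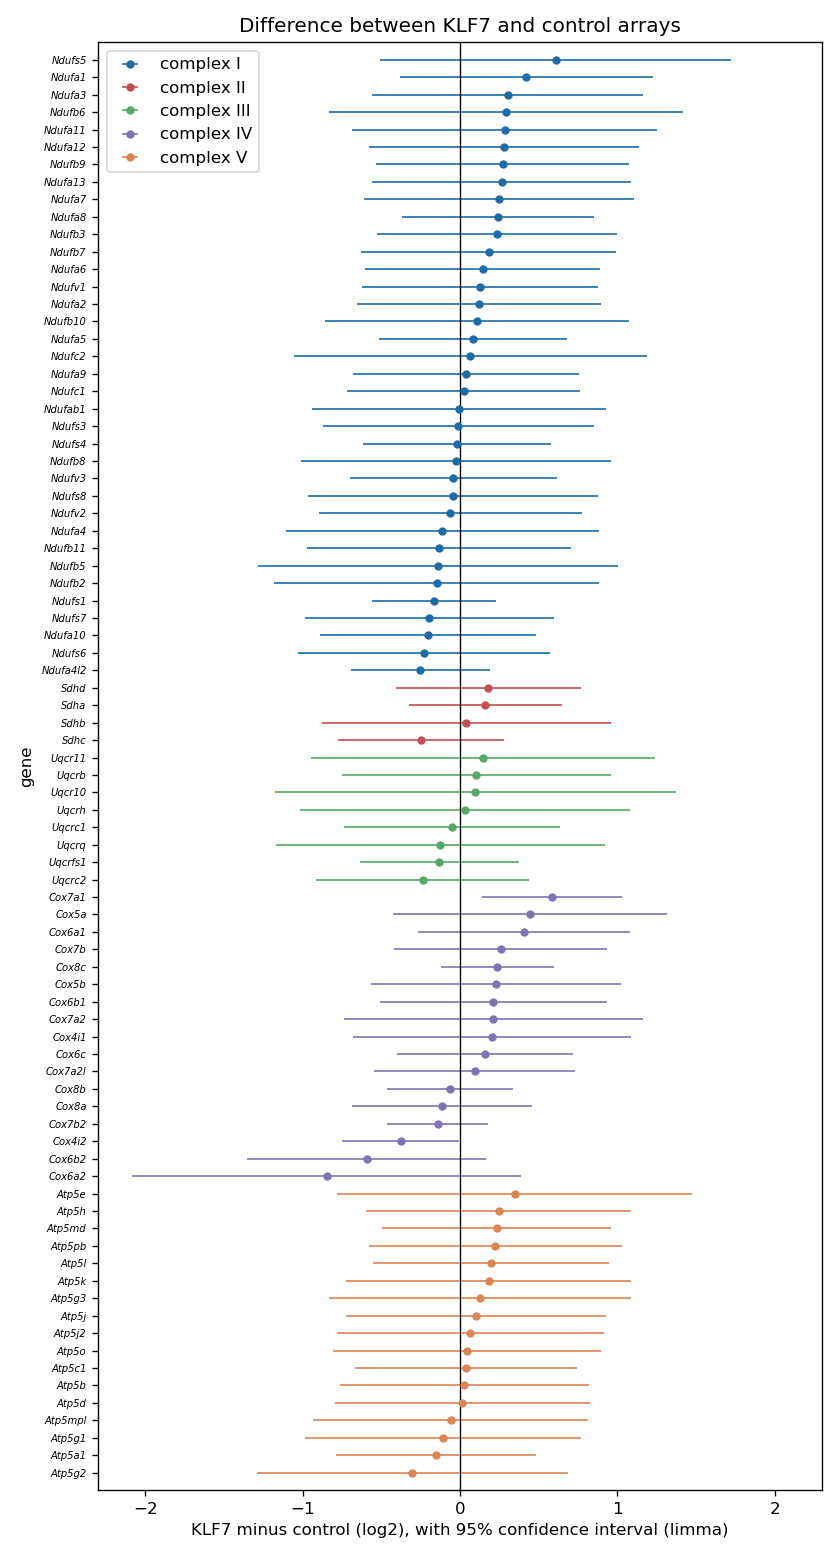
Difference between the mean of the 4 KLF7 arrays and the mean of the 4 control arrays in log2 intensity for each of the 82 members, grouped by complex, with limma's 95% interval as a bar. The intervals of 80 members include 0, and Cox7a1 and Cox4i2 are the exceptions.

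Complex I, the NADH dehydrogenase, split nearly evenly, with 20 of its 36 members higher on the KLF7 arrays and a median difference of 0.051. This median turned with the arrays used, to -0.16 without KLF7 4 and to -0.23 without both arrays numbered 2, against 0.29 without control 4. Ndufs5, an accessory subunit facing the intermembrane space, stood at 8.58, 9.70, 8.61 and 10.54 on KLF7 1 to 4, against 8.58, 8.10, 8.33 and 10.00 on control 1 to 4. KLF7 4, control 4 and KLF7 2 were high and the other 5 arrays lay close together, so the groups overlapped. The difference was 0.61 (SE 0.50, adjusted p = 0.854 in limma), 1.52-fold. Another probe set for Ndufs5 carried the name of its pseudogene as well and was not used here.

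Ndufa1, a small subunit of the membrane arm, was at 8.53, 9.81, 8.45 and 9.52 on KLF7 1 to 4, against 8.48, 8.002, 8.90 and 9.24 on control 1 to 4. Its groups overlapped, and the difference of 0.42 (SE 0.36) turned to -0.043 without both arrays numbered 2. Ndufs1, the largest subunit of the arm that takes electrons from NADH, varied least of all members, over 0.628 log2. It was at 6.86, 7.17, 6.89 and 7.49 on KLF7 1 to 4, against 7.24, 7.24, 7.41 and 7.19 on control 1 to 4. KLF7 1, 2 and 3 lay below all control arrays and KLF7 4 above them, and the difference was -0.17 (SE 0.18). Ndufa4l2, a paralogue of Ndufa4 known to be induced in low oxygen, was at 5.23, 5.34, 5.45 and 4.57 on KLF7 1 to 4, against 5.24, 5.17, 5.57 and 5.63 on control 1 to 4. Only KLF7 4 stood away from the other arrays, and the difference of -0.25 (SE 0.20) was 0.016 without both arrays numbered 4.

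Complex II, succinate dehydrogenase, has all its subunits encoded by nuclear genes, and 3 of its 4 members had higher means on KLF7 than on control arrays. Their median difference was 0.099, and it was -0.15 without KLF7 4 and -0.097 without both arrays numbered 2. Sdha, the flavoprotein that oxidises succinate, was at 8.54, 8.78, 8.53 and 9.30 on KLF7 1 to 4, against 8.51, 8.40, 8.67 and 8.92 on control 1 to 4. KLF7 4 was the highest array and the groups overlapped, with a difference of 0.16 (SE 0.22). Sdhb, the iron-sulphur subunit, was at 7.03, 8.40, 7.53 and 8.97 on KLF7 1 to 4, against 7.67, 7.66, 7.67 and 8.78 on control 1 to 4. KLF7 4, control 4 and KLF7 2 were high, KLF7 1 was lowest, and the difference was 0.038 (SE 0.41).

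The membrane anchors differed from each other in pattern. Sdhc was at 8.07, 8.69, 8.99 and 9.03 on KLF7 1 to 4, against 8.90, 8.67, 9.05 and 9.16 on control 1 to 4. KLF7 1 alone stood low, and the difference of -0.25 (SE 0.24) came to -0.040 without it. Sdhd was at 7.61, 7.96, 7.80 and 8.48 on KLF7 1 to 4, against 7.68, 7.26, 7.86 and 8.36 on control 1 to 4. Its groups overlapped, with a difference of 0.18 (SE 0.27). Adjusted p-values in complex II were 0.900 or more in limma.

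Complex III, the cytochrome c reductase, had 4 of 8 members higher and a median difference of -0.012. The median was -0.33 without both arrays numbered 2, -0.27 without KLF7 4 and 0.30 without control 4. Uqcr11, a small subunit whose promoter is printed above, was at 7.28, 8.60, 7.72 and 9.50 on KLF7 1 to 4, against 7.94, 7.41, 7.96 and 9.21 on control 1 to 4. The range within the KLF7 group was far wider than the difference between groups, 0.14 (SE 0.49). Uqcrq, another small subunit, was at 6.94, 8.93, 7.62 and 8.95 on KLF7 1 to 4, against 7.66, 8.09, 8.03 and 9.17 on control 1 to 4, with a difference of -0.13 (SE 0.47). Both swung over more than 2 log2 units across the arrays.

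Uqcrfs1, the Rieske iron-sulphur protein, was the steadiest of complex III, with a range of 0.815. It was at 7.74, 8.35, 7.60 and 8.36 on KLF7 1 to 4, against 7.94, 7.96, 8.27 and 8.42 on control 1 to 4, with a difference of -0.13 (SE 0.23). Uqcrc2, a core protein, was at 8.16, 8.79, 8.16 and 9.32 on KLF7 1 to 4, against 8.42, 8.67, 8.86 and 9.43 on control 1 to 4. KLF7 1 and KLF7 3 were its lowest arrays, the groups overlapped, and the difference was -0.24 (SE 0.31). Cyc1, the cytochrome subunit of the same complex, is left out by the name rule and gave -0.33 (SE 0.34).

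Complex IV, cytochrome c oxidase, held 3 of the 4 members that differed by more than 0.5 log2, and all 3 were tissue isoforms. Cox7a1, the heart and skeletal muscle form of subunit 7a, was at 6.45, 6.59, 6.26 and 6.63 on KLF7 1 to 4, against 5.74, 5.46, 6.40 and 5.98 on control 1 to 4. KLF7 1, 2 and 4 lay above every control array, and KLF7 3 lay below control 3. The difference was 0.58 (SE 0.20, 95% interval 0.14 to 1.03), with an unadjusted p of 0.015 and an adjusted p of 0.461 in limma. The adjusted p was 0.225 or more over the alternatives.

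Cox4i2, a form of subunit 4 known from lung and from low oxygen, was at 5.64, 5.64, 6.06 and 6.07 on KLF7 1 to 4, against 6.49, 6.25, 5.97 and 6.21 on control 1 to 4. KLF7 1 and KLF7 2 lay below all control arrays, and control 3 lay below KLF7 3 and 4. The difference was -0.38 (SE 0.17, adjusted p = 0.606 in limma), 1.30-fold lower. Cox6a2, the muscle form of subunit 6a, was at 6.69, 8.87, 6.95 and 8.82 on KLF7 1 to 4, against 7.59, 9.07, 8.59 and 9.47 on control 1 to 4. Its range of 2.78 was the widest of all 82 members. KLF7 1 and KLF7 3 lay below all control arrays and KLF7 2 and 4 among them, with a difference of -0.85 (SE 0.56). Cox6b2, the testis form of subunit 6b, was at 5.87, 7.26, 6.32 and 7.35 on KLF7 1 to 4, against 6.77, 7.14, 7.67 and 7.60 on control 1 to 4. Again KLF7 1 and KLF7 3 were lowest, and the difference was -0.59 (SE 0.34). Adjusted p-values of the last pair were 0.787 and 0.738 in limma.

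Among the 9 tissue isoforms and associated proteins (Ndufa4l2, Cox4i2, Cox6a2, Cox6b2, Cox7a1, Cox7a2l, Cox7b2, Cox8b and Cox8c), 3 averaged higher on KLF7 arrays, and the median difference was -0.14. The other 73 members had 48 higher and a median of 0.095. In complex IV, 8 of the 9 members that are not such isoforms had higher means, against 50.4% of all genes, with a median of 0.21. Without both arrays numbered 2, the median difference of all 17 complex IV members was -0.11. The 9 were not counted apart in that setting, and of them Cox6b1 was at -0.11 and Cox6a1 at 0.21. Ndufa4, which the name rule places in complex I, has been found as a subunit of complex IV in mammals. Counted there, it left the median of complex IV at 0.18 and that of complex I at 0.066.

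Common and tissue forms of a subunit take the same place in the complex, and the difference between them was taken within each array. This is a difference of log2 intensities of different probe sets, so only its change between arrays can be read. The 8 pairs were chosen after the values were seen. Cox8a was set against both Cox8b and Cox8c, and the last pair is Ndufa4 and its paralogue Ndufa4l2. For subunit 6b, Cox6b1 minus Cox6b2 was 4.56, 4.04, 4.28 and 4.25 on KLF7 1 to 4, against 3.92, 3.00, 3.16 and 3.83 on control 1 to 4. All 4 KLF7 arrays lay above all 4 control arrays. The mean was 4.28 ± 0.21 on KLF7 arrays and 3.48 ± 0.46 on control arrays (SD, n = 4 each), a difference of 0.81. The exact two-sided permutation test gave p = 0.0286, the smallest it can give, and 0.229 after Benjamini-Hochberg adjustment over the 8 pairs, so the difference did not pass.

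For subunit 6a, Cox6a1 minus Cox6a2 was 3.95, 2.82, 4.02 and 3.07 on KLF7 1 to 4, against 2.91, 1.62, 2.36 and 1.96 on control 1 to 4. All but KLF7 2 lay above every control array. The mean was 3.47 ± 0.61 on KLF7 arrays and 2.21 ± 0.56 on control arrays (SD, n = 4 each), a difference of 1.25 with an exact permutation p of 0.0571 and an adjusted 0.229. Cox4i1 minus Cox4i2 differed by 0.58 (0.13 without both arrays numbered 2) and Cox7a2 minus Cox7a1 by -0.37, with exact permutation p of 0.257 and 0.429. The other 4 pairs had exact permutation p between 0.343 and 0.914. The differences for 6b and 6a lay between 0.65 and 0.95 and between 1.06 and 1.49 over the 20 alternatives. With groups this far apart, leaving out 1 array or both arrays of a number could not turn the sign. The kept sign therefore adds no support.

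**Figure D2:**
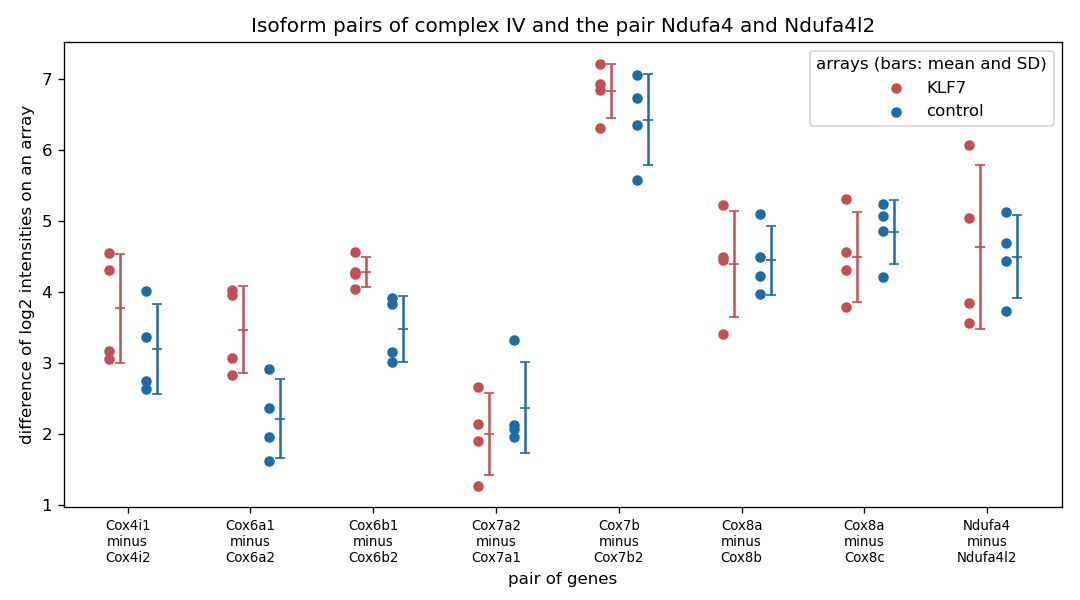
Difference of log2 intensities within each array for the 8 pairs. These are common minus tissue form of a complex IV subunit, or Ndufa4 minus its paralogue Ndufa4l2. The 4 KLF7 arrays lie left of the 4 control arrays as points, with the mean and SD of each group as a bar. For Cox6b1 minus Cox6b2 the KLF7 arrays lie between 4.04 and 4.56 and the control arrays between 3.00 and 3.92.

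Complex V, the ATP synthase, had 13 of 17 members higher and a median difference of 0.066. Its direction was not stable, with -0.18 without KLF7 4, -0.23 without both arrays numbered 2 and 0.32 without KLF7 1. Atp5e, a subunit of the rotating central stalk, was at 9.47, 10.58, 9.37 and 11.29 on KLF7 1 to 4, against 9.05, 9.50, 9.64 and 11.13 on control 1 to 4, with a difference of 0.35 (SE 0.51). Atp5g2, which encodes the c subunit of the membrane ring, was at 9.12, 10.58, 9.34 and 11.04 on KLF7 1 to 4, against 10.05, 9.82, 10.26 and 11.18 on control 1 to 4. Its difference of -0.31 (SE 0.45) was the lowest of the complex, and it was -0.66 without both arrays numbered 2 and -0.0037 without KLF7 1. The groups overlapped for both genes, and the arrays numbered 4 were highest within each group.

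Atp5h, subunit d of the peripheral stalk, was at 8.37, 9.93, 8.91 and 9.92 on KLF7 1 to 4, against 9.02, 8.95, 8.47 and 9.71 on control 1 to 4, with a difference of 0.24 (SE 0.38). Atp5md, a small membrane subunit, was at 9.11, 9.72, 8.9996 and 10.04 on KLF7 1 to 4, against 8.55, 9.31, 9.10 and 9.98 on control 1 to 4, with a difference of 0.23 (SE 0.33). In both, KLF7 2 and the arrays numbered 4 were the highest. Every adjusted p of complex V was 0.941 or more in limma.

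Most members shared an order over the 8 arrays. KLF7 4, control 4 and KLF7 2 were the 3 highest arrays for 70 of 82 members (85.4%), against 8.18% of all genes. The count was 34 of 36 in complex I, 3 of 4 in complex II, 7 of 8 in complex III, 9 of 17 in complex IV and 17 of 17 in complex V. These 3 arrays were named after the members' values were seen, which favours the members in a comparison with all genes or other lists. Both arrays numbered 4 were among the 3 highest for 75 members (91.5%), against 21.8% of all genes. The lowest array was KLF7 1 for 36 members, control 2 for 26, KLF7 3 for 9 and control 1 for 8. The order therefore cut across the groups, with high and low arrays in each.

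**Figure D3:**
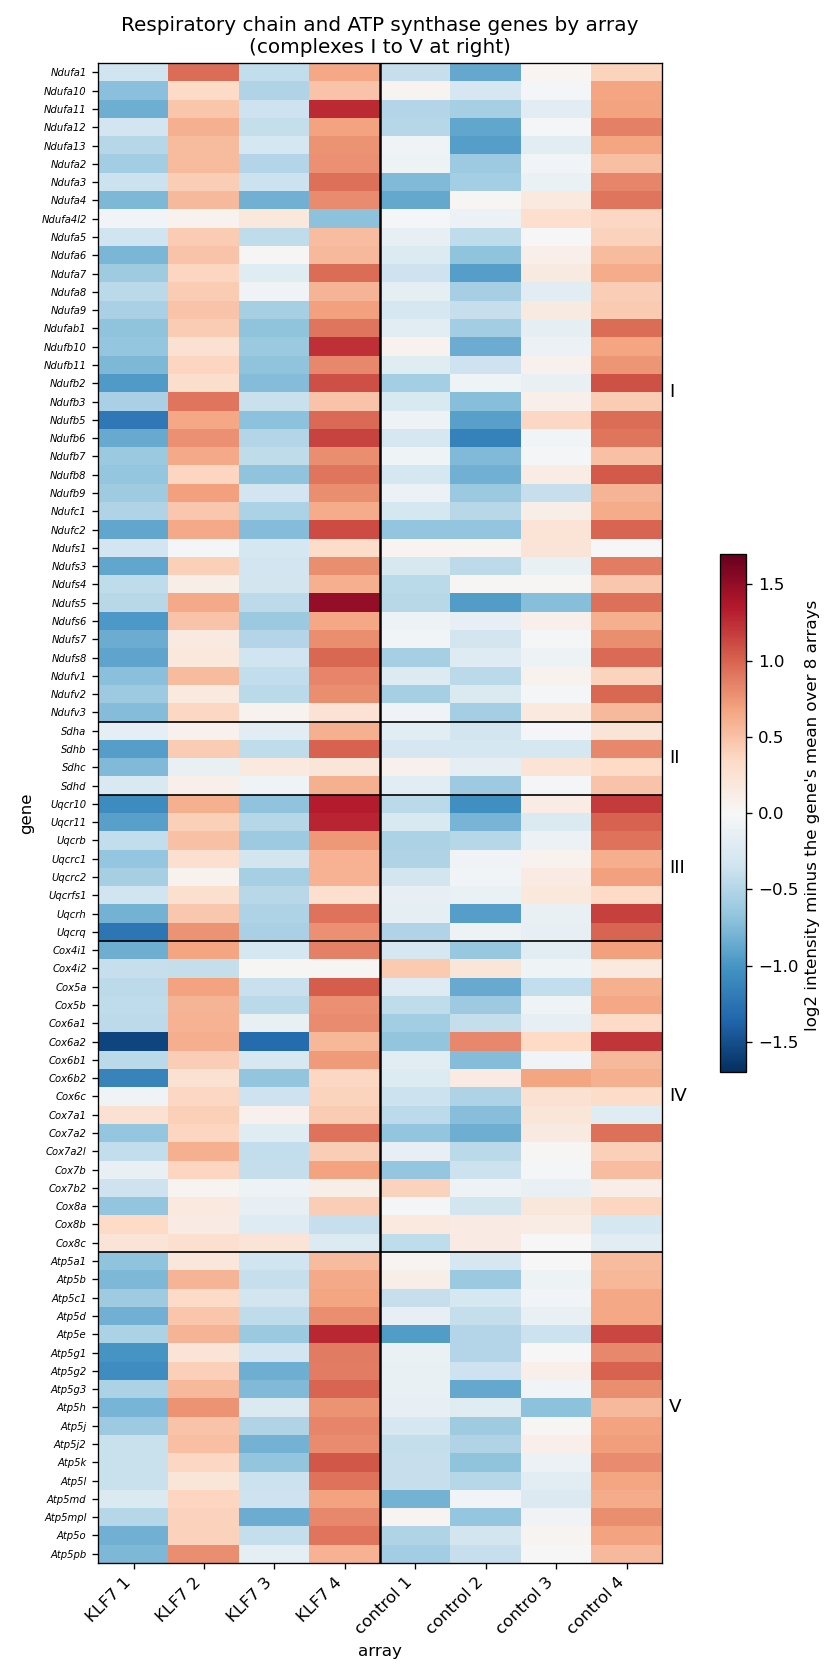
Level of each of the 82 members on each array minus that member's mean over the 8 arrays, in log2 intensity, with the KLF7 arrays left of the control arrays and members grouped by complex. KLF7 2, KLF7 4 and control 4 are the high columns for 70 of the 82 members.

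The mean of the 82 members was 7.92, 8.93, 8.11 and 9.23 on KLF7 1 to 4, against 8.24, 8.07, 8.50 and 9.15 on control 1 to 4. That is 8.55 ± 0.63 on KLF7 arrays and 8.49 ± 0.48 on control arrays (SD, n = 4 each). The mean moved over 1.31 log2 units between KLF7 1 and KLF7 4. The mean of all genes moved over 0.047, but RMA normalises between arrays and so holds that mean nearly level. By complex, the range of the mean over the arrays was 1.40 in complex I, 1.13 in complex II, 1.62 in complex III, 0.883 in complex IV and 1.46 in complex V. Further array scalings (quantile normalisation again, cyclic loess, array medians) gave 66 to 70 members with the same 3 highest arrays and a range of the mean from 1.07 to 1.37.

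The 12 members with another order were Ndufa4l2, Ndufs1, Sdhc, Uqcrc2, Cox4i2, Cox6a2, Cox6b2, Cox7a1, Cox7b2, Cox8a, Cox8b and Cox8c. Of these, 8 are among the 9 tissue isoforms and associated proteins, and 4 are among the other 73 members. The mean of the 9 was 5.77, 6.34, 5.87 and 6.18 on KLF7 1 to 4, against 6.01, 6.12, 6.28 and 6.35 on control 1 to 4, a range of 0.582. The mean of the other 73 had a range of 1.42. Several of the 9 were dim, while the array medians over all genes lay between 5.77 and 5.85. Means on KLF7 and control arrays were 3.39 and 3.53 for Cox7b2 and 4.78 and 4.54 for Cox8c. Cox8b stood at 4.87 and 4.94. Cox7a2l, at 9.31 and 9.22, kept the shared order, and Cox6a2, at 7.83 and 8.68, did not. A dim probe set can show less of a shared order, and the part of brightness was not tested.

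Lists from related pathways moved over the arrays by different amounts. The mean of the 77 mitochondrial ribosomal protein genes had a range of 1.20, and 52 of them (67.5%) had the same 3 highest arrays. The mean of 24 protein import genes had a range of 1.19, that of 11 mitochondrial antioxidant genes 1.00 and that of 19 genes of the TCA cycle 0.841. For the 68 cytosolic ribosomal protein genes the range was 0.738 and the count 33 (48.5%). The range was 0.700 for 45 assembly factors, 0.458 for 22 glycolysis genes and 0.251 for 20 regulators of mitochondrial biogenesis. The mean of 9 division genes was 8.29, 8.60, 8.21 and 8.70 on KLF7 1 to 4, against 8.63, 8.52, 8.78 and 8.84 on control 1 to 4. Its lowest arrays, KLF7 1 and KLF7 3, were low for the members as well, and its part in their order was not tested. The mast cell and basophil mean and Kit, given above, were lowest on both arrays numbered 4, where the members were high, but on KLF7 2 they were not low. The neutrophil mean was also lowest on these arrays, and the megakaryocyte mean had the members' 3 highest arrays. The part of these cell markers in the order was not tested.

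**Figure D4:**
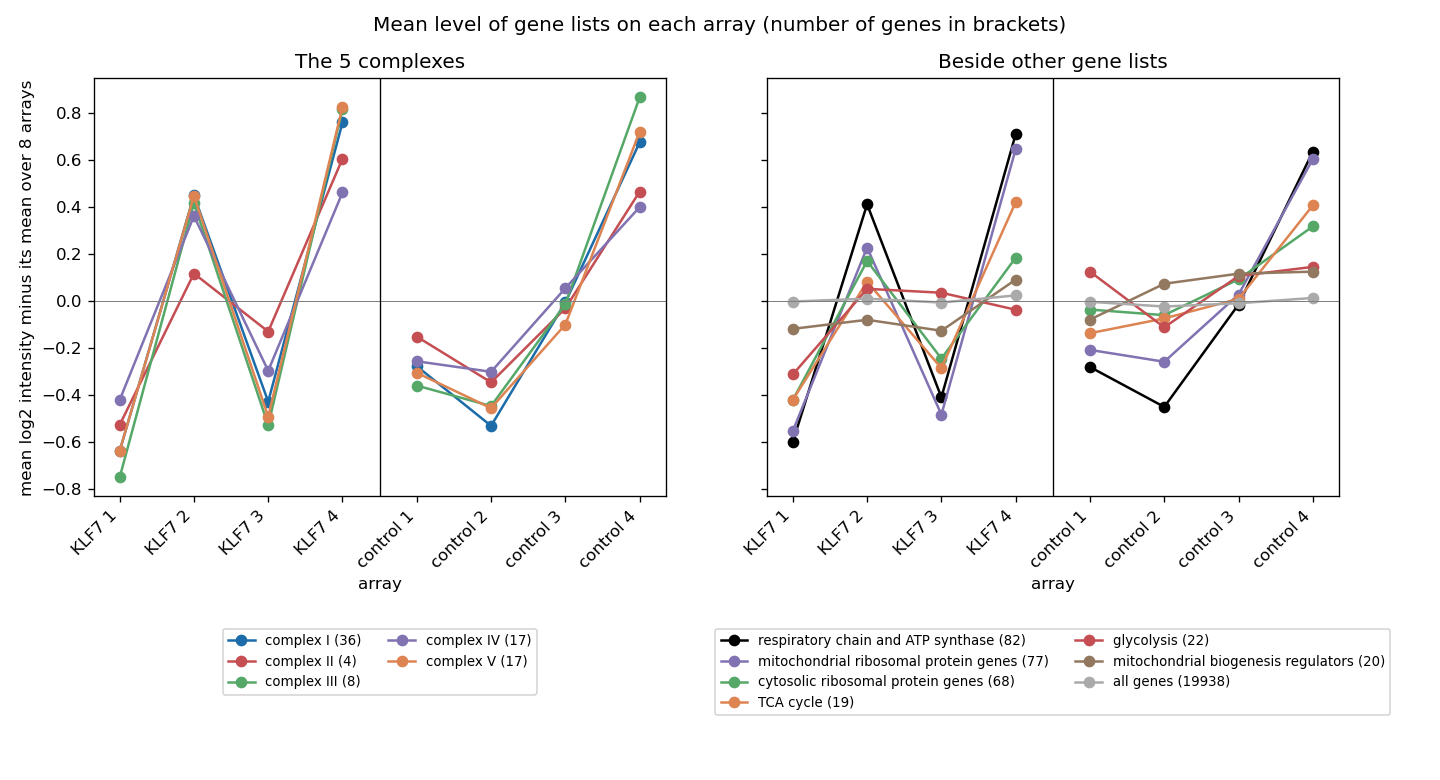
Mean log2 intensity of each list on each array minus that list's mean over the 8 arrays, for the 5 complexes (first panel) and for all 82 members beside other lists (second panel), with the KLF7 arrays left of the control arrays and lines that only join the points of a list. KLF7 4 and control 4 lie above 0 and KLF7 1, control 1 and control 2 below it in every complex, and the 20 regulators of biogenesis move over 0.251.

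Set side by side by number, the arrays gave opposite directions. The median member difference was -0.33 for KLF7 1 minus control 1, with 21 of 82 higher, and 0.95 for KLF7 2 minus control 2, with 79 higher. For KLF7 3 minus control 3 it was -0.38, with 9 higher, and for KLF7 4 minus control 4 it was 0.068, with 58 higher. The medians over all genes were -0.0099, 0.0091, 0.030 and -0.0021. In the second comparison 35 of 36 members of complex I, 4 of 4 of complex II, 8 of 8 of complex III, 15 of 17 of complex IV and 17 of 17 of complex V were higher on KLF7 2. In the third, 3 of 36, 0 of 4, 0 of 8, 5 of 17 and 1 of 17 were higher on KLF7 3. The labels do not say that a shared number marks a shared culture or day.

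Few members kept 1 direction in all 4 comparisons. Ndufs5 and Cox6a1, the common form of subunit 6a, were higher on the KLF7 array in each, 2 of 82 (2.44%) against 11.2% of all genes. Cox6a2 was lower in each, 1 of 82 (1.22%) against 9.68%. Cox6a1 was at 10.65, 11.69, 10.97 and 11.89 on KLF7 1 to 4, against 10.50, 10.69, 10.95 and 11.43 on control 1 to 4. KLF7 3 and control 3 differed by 0.017 there, so the shared direction rests on a small margin. Differences for Cox6a2 were -0.90, -0.20, -1.64 and -0.65 from the first to the fourth comparison, and for Ndufs5 they were 0.00056, 1.60, 0.28 and 0.55. Cox6a1 minus Cox6a2 was higher on the KLF7 array of each number, by 1.04, 1.20, 1.66 and 1.11, and Cox6b1 minus Cox6b2 by 0.64, 1.04, 1.12 and 0.42. The permutation tests of these pairs, given above, took no account of the numbers.

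**Figure D5:**
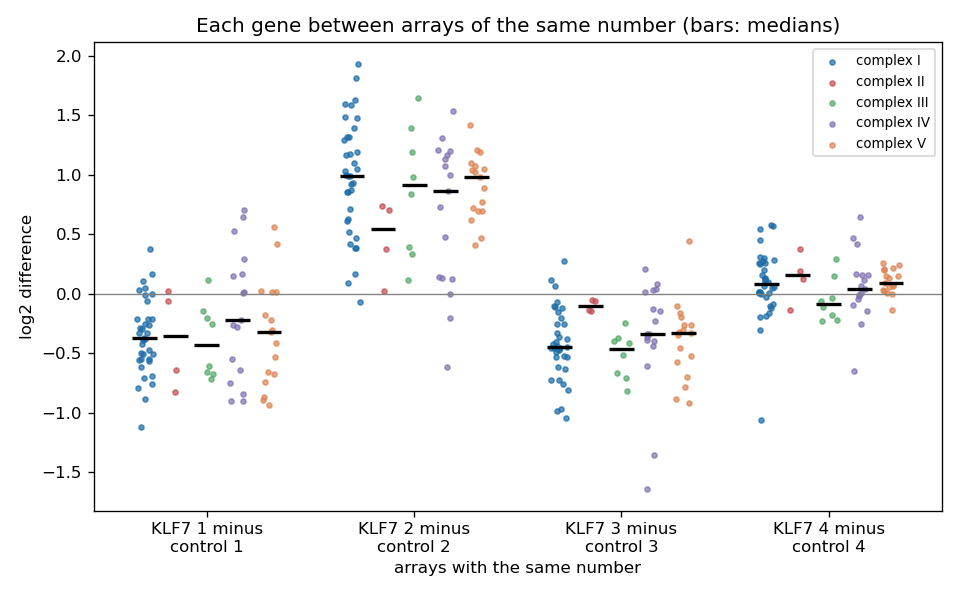
Difference in log2 intensity between the KLF7 array and the control array of the same number for each of the 82 members, as points by complex with bars at the medians. The members lie mostly above 0 for the arrays numbered 2 (79 of 82 higher) and mostly below 0 for those numbered 3 (9 of 82 higher).

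The wider pathway was described by whole lists of genes, and 0 of their genes passed the adjusted threshold in limma. The count with a higher mean on KLF7 arrays was 18 of 45 for assembly factors (median difference -0.056), 5 of 17 for electron carriers and coenzyme Q synthesis (-0.15), 7 of 19 for the TCA cycle (-0.078) and 6 of 22 for glycolysis (-0.087). It was 5 of 20 for regulators of mitochondrial biogenesis (-0.12), 7 of 24 for protein import (-0.14) and 6 of 11 for antioxidants (0.045). Cytosolic ribosomal protein genes had 8 of 68 higher (-0.17) and mitochondrial ones 30 of 77 (-0.059). These medians lay below that of the respiratory chain and ATP synthase genes, 0.075, in every list named. The members' median was -0.18 without KLF7 4 and -0.22 without both arrays numbered 2. The other lists were not taken in those settings, so the ranking holds only for all 8 arrays.

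At an unadjusted p under 0.05, against 8.21% of all genes, stood 5 of the 17 electron carrier and coenzyme Q genes, 4 of 22 glycolysis genes and 3 of 20 biogenesis regulators. The count was 1 of 11 for antioxidants, 2 of 24 for protein import, 1 of 19 for the TCA cycle and 2 of 45 for assembly factors. It was 3 of 68 for cytosolic and 0 of 77 for mitochondrial ribosomal protein genes. Electron carrier and coenzyme Q genes at this threshold were 1 higher and 4 lower. In glycolysis they were 1 and 3, and among biogenesis regulators 1 and 2. The groups did not overlap in 5 of 17, 4 of 22 and 1 of 20 genes of these lists, against 5.22% of all genes. They did not overlap in 1 of 68 cytosolic and 1 of 77 mitochondrial ribosomal protein genes, and in 0 genes of the other lists. Coq10b, a coenzyme Q binding protein, was at 6.97, 6.35, 6.28 and 6.28 on KLF7 1 to 4, against 6.15, 5.73, 5.56 and 5.67 on control 1 to 4. All KLF7 arrays lay above all control arrays, with a difference of 0.69 (SE 0.20, adjusted p = 0.378 in limma). Pdss2, which makes the tail of coenzyme Q, was at 5.48, 5.29, 5.45 and 5.45 on KLF7 1 to 4, against 5.77, 6.34, 6.07 and 5.67 on control 1 to 4. Here all KLF7 arrays lay below, with a difference of -0.55 (SE 0.16, adjusted p = 0.390 in limma).

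Slc16a1, a carrier of lactate and pyruvate, differed by -1.07 (SE 0.29), and Pfkm, a phosphofructokinase of glycolysis, by -0.68 (SE 0.19). In both the KLF7 arrays lay below all control arrays, with adjusted p of 0.362 and 0.368 in limma. Twnk, the helicase of mitochondrial DNA, differed by -0.72 (SE 0.20), Ppargc1b, a coactivator of mitochondrial genes, by -0.54 (SE 0.18) and its relative Ppargc1a by 0.28 (SE 0.16). Groups overlapped for these 3 genes.

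In the TCA cycle, Suclg2, a subunit of succinyl-CoA ligase upstream of complex II, differed by -1.05 (SE 0.36) and Idh3a, a subunit of isocitrate dehydrogenase, by -0.39 (SE 0.26). Tmem126b and Tmem186, assembly factors of complex I, differed by 0.66 (SE 0.29) and -0.53 (SE 0.19). Timm21 and Hspa9, which act in import into the matrix, gave -0.69 (SE 0.28) and -0.63 (SE 0.28). Nnt, the proton-driven transhydrogenase, gave -0.51 (SE 0.18), and Sod1, a superoxide dismutase, -0.26 (SE 0.19). Groups overlapped for all 8 genes, and their smallest adjusted p in limma was 0.459.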

How the data were processed

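Total RNA was measured on 8 biotin-labelled single-colour arrays. The deposited intensities, from 2.20 to 15393, come from RMA run by the authors in Affymetrix Expression Console (source: the submitters' processing notes, which name no version). RMA subtracts background, normalises between arrays and summarises probes. Of 35554 probe sets, 21789 had 1 symbol, 1621 several and 12144 none, and 19938 genes remained. Dim genes were kept. All 82 members matched RefSeq by Entrez number under the same symbol. Of their 25 other probe sets, 25 had the direction of the one kept. They measure the same genes on the same arrays, so this adds no separate support. Sizes differed, with 0.055 against 0.26 for the kept one in Cox7b and 0.17 against 0.023 in Ndufc1. Log2 intensities were fitted in limma 3.58.1 (R 4.3.3) by group alone, with two-sided moderated tests and a prior that follows intensity, with Benjamini-Hochberg adjustment over all genes, a threshold of 0.05 and 95% intervals. The script was tested on simulated data. Named members were the 4 per complex with the smallest unadjusted p, those with the highest and lowest difference and all Sdh genes, and of each other list up to 2 with the smallest p, always with Cyc1, Ppargc1a and Kit. Cox6a1, Cox8a, Ndufa4 and the isoform pairs were named after their values were seen. The members, lists and tests were chosen with earlier results of these data known. No scan date or slide was given. Array medians lay between 46.2 and 54.1 intensity units, and the number of arrays limits the precision. Figures were drawn with matplotlib 3.10.9.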

Additional observations from a re-analysis of the deposited data

Results flagged for a closer look

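In 4 of 194 groups of 4 arrays, 1 array stood apart from the other 3 by Dixon's test at the 95% level, which chance alone does in about 5% of groups. Sdhb was 8.78 on control 4, and the nearest control array was at 7.67. Cox8b was 4.60 on control 4, below the nearest control array at 5.03. Cox8c, the testis form of subunit 8, was 4.42 on KLF7 4, below the nearest KLF7 array at 4.87. Cox7a2 minus Cox7a1 was 3.32 on control 4, above the nearest control array at 2.12.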

How the results depend on the processing

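No member was called under any of the 21 alternatives run, and 11 of 20 named members kept their sign in all 20 settings of the fit. Over all genes, limma called 90 with the replicate block (0.451%), 26 with the arrays numbered 4 as a term and 0 to 1 with 1 array left out, that 1 without KLF7 3 or without control 4. Deviations of same-numbered arrays from their group means correlated at 0.35, -0.13, 0.36 and 0.70 for numbers 1 to 4. KLF7 1, 3 and 4 each correlated best with the control array of their own number, and KLF7 2 with control 4. Because the labels state no pairing and number 2 departed from it, the main fit took no account of the numbers. Whether the arrays are paired was not settled. Under the block 0 members passed the adjusted threshold, and 4 (4.88%) had an unadjusted p under 0.05, against 13.5% of all genes.

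With 1 array left out, the number of higher members ran from 21 to 70 and their median difference from -0.18 to 0.30. By complex, the medians ran from -0.16 to 0.29 in I, -0.15 to 0.29 in II, -0.27 to 0.30 in III, 0.00039 to 0.30 in IV and -0.18 to 0.32 in V. The single differences that turned were -0.29 to 0.35 for Sdhb, -0.41 to 0.26 for Uqcrq, -0.25 to 0.0037 for Uqcrfs1, -0.012 to 0.26 for Sdha, -0.26 to 0.50 for Uqcr11, -0.023 to 0.78 for Atp5e, -0.028 to 0.92 for Kit, -0.33 to 0.28 for Cox8a minus Cox8b and -0.34 to 0.49 for Ndufa4 minus Ndufa4l2. Without both arrays numbered 4, Ndufa4 minus Ndufa4l2 was -0.13, Ndufa4l2 0.016 and Sdhb -0.013. Without both numbered 1, Cox8a minus Cox8b was 0.20 and Uqcrq 0.070. With array weights these were 0.037 and 0.21. Without both numbered 2, a setting chosen after seeing the data, 13 members were higher, and Ndufa1 was -0.043, Sdhb -0.20, Uqcr11 -0.21, Atp5h -0.00077 and Cox6b1 -0.11. The cause of these turns was not tested. The Klf7 difference ran from 1.38 to 2.38 over its 20 alternatives.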
